A study of Mus musculus with 12 samples.

Results

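Germ cells make many mRNAs long before the proteins are needed, and 8 genes whose products store, adenylate or control the translation of such mRNAs are described here in the mouse testis during the first wave of spermatogenesis. The genes were taken by symbol, namely Dazl, Boll, Pum2, Cpeb1, Papolb, Pabpc1, Ybx2 and Ddx25, which is 8 of the 37675 genes listed in each library and of the 26788 genes with a count in any mouse. No measured value entered that rule. All 8 genes had a count in all 10 mice, and all 8 passed the filter on low counts that left 16860 genes in the tests.

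The samples were testes, taken whole, from the inbred C57BL/6NHsd strain, with 2 mice at each of postnatal days (PND) 7, 14, 17, 21 and 28. All groups shared this strain and tissue and differed in age. RNA depleted of ribosomal RNA was sequenced, and a value is therefore an average over every germ and somatic cell type that the testis held at that age. In such tissue fewer cells of a type and less RNA per cell cannot be told apart. Levels are given as deposited RPKM, read counts scaled to the exon length and to the counted reads of the library. Tests used the read counts in edgeR, scaled by TMM, and a gene was called differentially expressed (DE) at a p under 0.05 after Benjamini-Hochberg adjustment with at least a 2-fold change. Fold changes are the later over the earlier age throughout, and the comparisons of neighbouring ages share mice with each other.

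Late in spermiogenesis the germ cell compacts its chromatin and shuts transcription down, so that late proteins are translated from mRNAs made and stored before. Storage relies on proteins that coat mRNA, and release is commonly tied to a longer poly(A) tail in the cytoplasm. DAZ family, Pumilio and CPEB proteins recognize short sequence elements in their targets, poly(A) polymerases extend the tail, and poly(A)-binding proteins link the tail to the translation machinery.

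All 8 genes are annotated as protein coding in mm9. Dazl (ENSMUSG00000010592) lies on the minus strand of chromosome 17 at 50418719-50432924 and Boll (ENSMUSG00000025977) on the minus strand of chromosome 1 at 55305502-55420313. Pum2 (ENSMUSG00000020594) lies on the plus strand of chromosome 12 at 8680940-8759387 and Cpeb1 (ENSMUSG00000025586) on the minus strand of chromosome 7 at 88491912-88600351. Papolb (ENSMUSG00000074817) is a gene of 1 exon on the minus strand of chromosome 5 at 143001792-143006030, within the bounds of Radil on the same strand but sharing 0 exon bases with it. Pabpc1 (ENSMUSG00000022283) lies on the minus strand of chromosome 15 at 36525416-36538728, Ybx2 (ENSMUSG00000018554) on the plus strand of chromosome 11 at 69749298-69755107 and Ddx25 (ENSMUSG00000032101) on the minus strand of chromosome 9 at 35349433-35366055. None of the 8 shared an exon base with another annotated gene. Of all windows of 50 exon bases, the read length, 15.2% of those of Pabpc1 and 10.7% of those of Ybx2 occurred elsewhere in the genome, beside 0.382% for Papolb, where the other place was Papola, and 0 for the other five. Since only unique reads were counted, the levels of Pabpc1 and Ybx2 rest on a part of their exons.

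Promoter windows of 250 bases before the start site were available from RefSeq (GRCm38.p6) for 7 of the 8 genes, as 11 windows. Those of 4 genes are shown because the genes differed in course, Papolb and Ddx25 with a rise at several ages and Dazl and Pum2 without a DE call between neighbouring ages. Each was matched by sequence to 1 place in NCBIM37 (mm9) and is written 5′ to 3′ on the strand of its gene, with CG dinucleotides in capitals. The windows of Papolb, at chr5:143006031-143006280, of Ddx25, at chr9:35366056-35366305, and of Pum2, at chr12:8680690-8680939, end at the first base of the deposited gene, and that of Dazl, at chr17:50432946-50433195, ends 21 bases before it.
Papolb: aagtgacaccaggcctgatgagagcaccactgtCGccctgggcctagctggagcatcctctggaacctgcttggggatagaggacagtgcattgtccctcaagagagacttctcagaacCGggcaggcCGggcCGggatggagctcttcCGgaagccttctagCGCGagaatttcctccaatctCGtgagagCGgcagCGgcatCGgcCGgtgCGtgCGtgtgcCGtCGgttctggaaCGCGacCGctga
Ddx25: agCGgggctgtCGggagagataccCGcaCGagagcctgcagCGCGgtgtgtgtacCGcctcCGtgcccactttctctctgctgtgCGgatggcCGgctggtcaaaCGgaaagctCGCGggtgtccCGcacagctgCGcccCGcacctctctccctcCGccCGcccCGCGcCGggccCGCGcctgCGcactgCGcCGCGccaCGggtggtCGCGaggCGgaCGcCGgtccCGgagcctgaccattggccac
Dazl: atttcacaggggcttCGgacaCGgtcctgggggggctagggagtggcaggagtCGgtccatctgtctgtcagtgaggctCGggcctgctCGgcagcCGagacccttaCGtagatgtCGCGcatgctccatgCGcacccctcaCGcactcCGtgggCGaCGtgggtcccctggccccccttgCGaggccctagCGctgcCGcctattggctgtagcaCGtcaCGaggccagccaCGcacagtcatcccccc
Pum2: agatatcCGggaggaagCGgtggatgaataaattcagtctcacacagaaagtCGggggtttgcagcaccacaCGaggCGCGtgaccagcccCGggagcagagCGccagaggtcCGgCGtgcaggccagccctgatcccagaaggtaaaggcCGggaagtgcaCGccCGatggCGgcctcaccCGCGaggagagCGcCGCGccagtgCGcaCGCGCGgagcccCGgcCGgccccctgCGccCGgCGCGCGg
The Papolb window held 19 CG dinucleotides, the Dazl window 20, the Pum2 window 30 and the Ddx25 window 34, beside a median of 6 over 32851 promoter windows of the same length. At least 19 were found in 19.7% of these windows, so that all of them lay in the CG-rich part of the range. The windows of the 7 genes were also searched on both strands for short motifs. The letters TGACGTCA, the palindrome of the cAMP response element, were in none of the 11 windows and in 1.55% of all promoters. TAACNG, a MYB-type motif, was likewise in none of the 11 and in 19.8% of all. GGGCGG, a GC box, was in windows of Boll, Cpeb1, Ddx25, Pum2 and Ybx2 and in 32.7% of all, and 2 overlapping matches lay 95 and 91 bases before the start of Ddx25. TATAAA was in the Cpeb1 window, on its minus strand, and in 12.4% of all promoters. CACGTG, an E-box, was in a window of Boll and in 6.02% of all, and GTTGCC, an RFX-type motif, in a window of Ybx2 and in 10.4% of all.

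Total counts per mouse ranged from 3994026 to 13559548. The cell types of the growing testis were read from marker lists. Summed over 11 spermatocyte markers, RPKM was 145 and 139 in the PND 7 mice and between 951 and 1517 from PND 14 on. The sum over 9 Sertoli cell markers was 814 and 661 at PND 7 and 170 and 217 at PND 28, and the sum over 10 spermatogonial markers was 255 and 218 at PND 7 and 62.8 and 74.5 at PND 28. Of 11 spermatid markers, 7 were at 0 in both PND 7 mice, and the sum was 34.8 and 32.9 at PND 17, 314 and 229 at PND 21 and 9869 and 12135 at PND 28. One library stood apart. PND 14 mouse 1 had a spermatid sum of 503 beside 31.7 in PND 14 mouse 2, all 11 markers were higher in mouse 1 than in mouse 2, and the sum was 4.57% of the PND 28 mean. Prm1 was at 133 RPKM in mouse 1 and at 2.46 in mouse 2, and Tnp1 was at 158 and 5.17. The Sertoli sum of the same mouse was 851, beside 465 in mouse 2. The PND 7/14 values of the 8 genes are therefore given with and without this mouse, and the part of these RNAs in them was not tested.

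**Figure D1:**
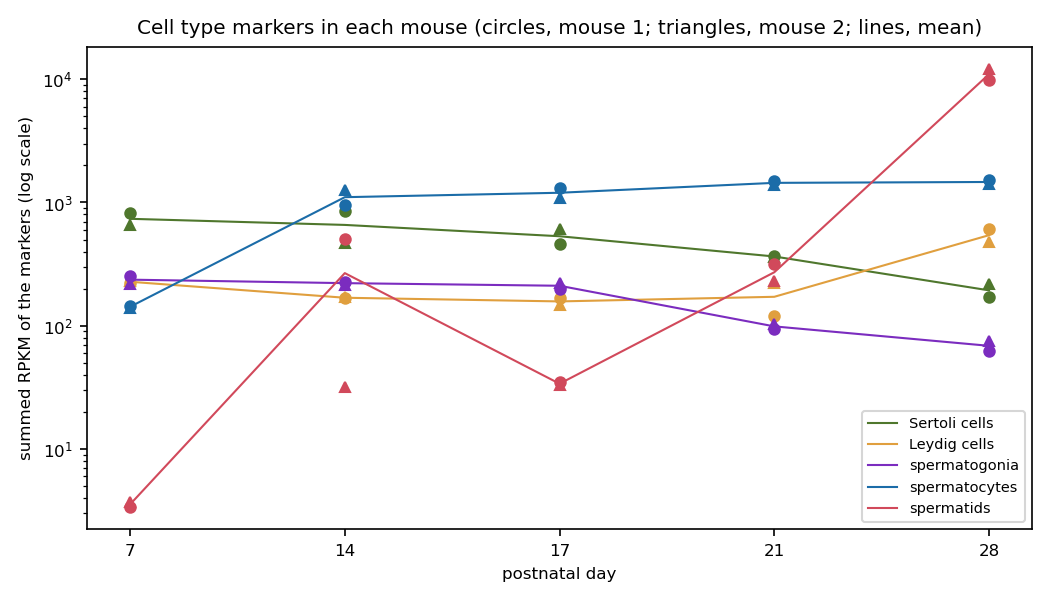
Summed RPKM (log scale) of the markers of 5 cell types in each mouse against postnatal day, with circles for mouse 1, triangles for mouse 2 and lines for the mean of 2 mice. The spermatid sum of PND 14 mouse 1 (503) sits far above that of PND 14 mouse 2 (31.7), while the spermatocyte sum rises between PND 7 (145 and 139) and PND 14 (951 and 1258).

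The 8 genes parted by their DE calls, with Dazl just under the 2-fold limit in PND 7/14. Boll, Papolb, Pabpc1, Ybx2 and Ddx25 were DE and higher both at PND 14 and at PND 28 than at PND 7, while Dazl, Pum2 and Cpeb1 were not DE in any of the 4 comparisons of neighbouring ages. In PND 7/14, 5 of the 8 genes were DE, all higher, beside 18.9% of all genes tested in either direction and 13.5% in that direction. Without PND 14 mouse 1, 6 were DE, with Dazl added, beside 16.3% of all genes tested. In PND 14/17 none of the 8 was DE, beside 0% of all genes, although 769 genes had an unadjusted p under 0.05. DESeq2 called 1 gene in that comparison (0.00593%) and limma with the criteria of the study 4 genes (0.0149%), none of them among the 8. In PND 17/21, 3 of the 8 were DE, all higher, beside 10.3% in either direction and 9.29% higher. Of all genes called there 89.8% were higher, and 78.9% when scaled by library totals. In PND 21/28 edgeR called 0 of the 8, beside 7.66% of all genes, with 4021 genes at an unadjusted p under 0.05, of which the 8 contributed Papolb, Ybx2 and Ddx25. There DESeq2 called 1, Ddx25, beside 8.79% of all genes, and limma with the criteria of the study called 0, beside 3.15%. Over the whole span, PND 7/28, the same 5 genes as in PND 7/14 were DE, beside 55.6% of all genes in either direction and 32.2% higher. By limma on log2(RPKM + 1) with the criteria of the study, 6 of the 8 were DE in PND 7/14, 2 in PND 17/21 and 5 in PND 7/28, beside 3.65%, 2.88% and 14.3% of all genes.

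**Figure D2:**
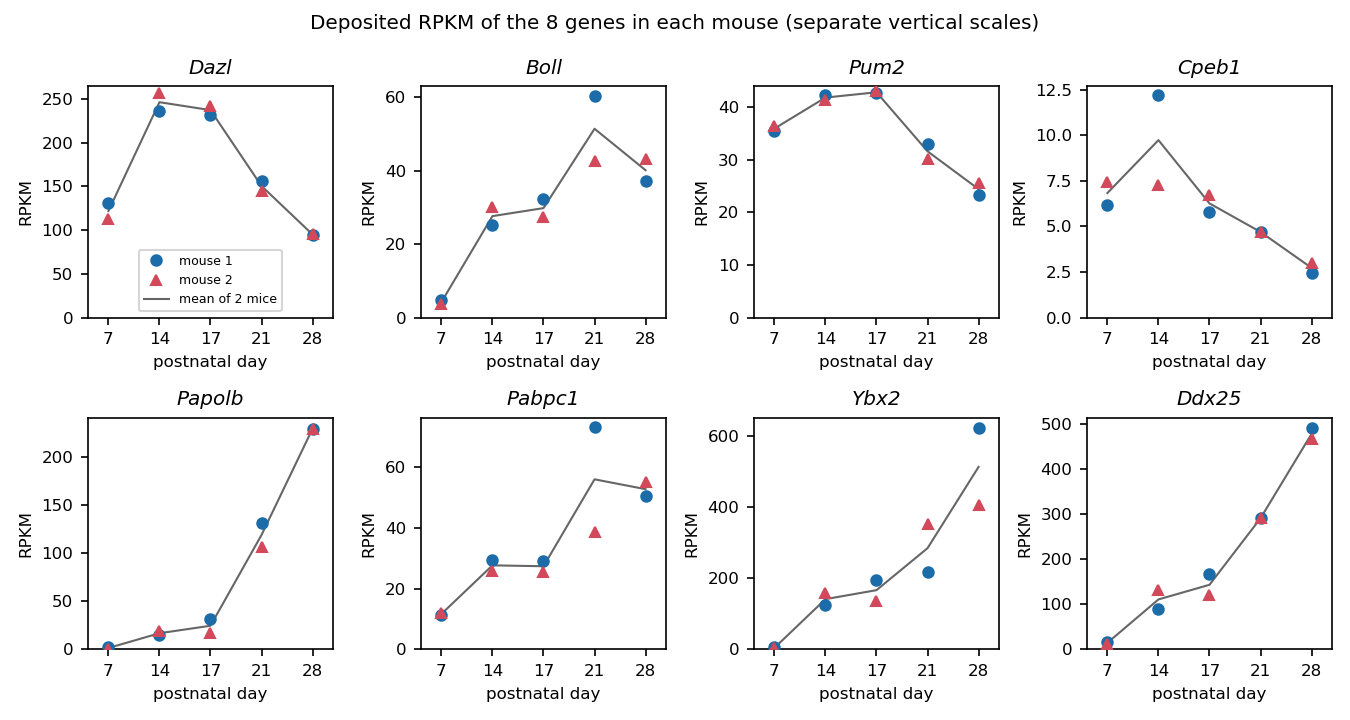
Deposited RPKM of each of the 8 genes (vertical axes, separate scales from 0) against postnatal day, with circles for mouse 1, triangles for mouse 2 and a line through the mean of 2 mice. Dazl and Pum2 have their highest means at PND 14 (246) and PND 17 (42.8), whereas Papolb (230) and Ddx25 (477) have theirs at PND 28.

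**Figure D3:**
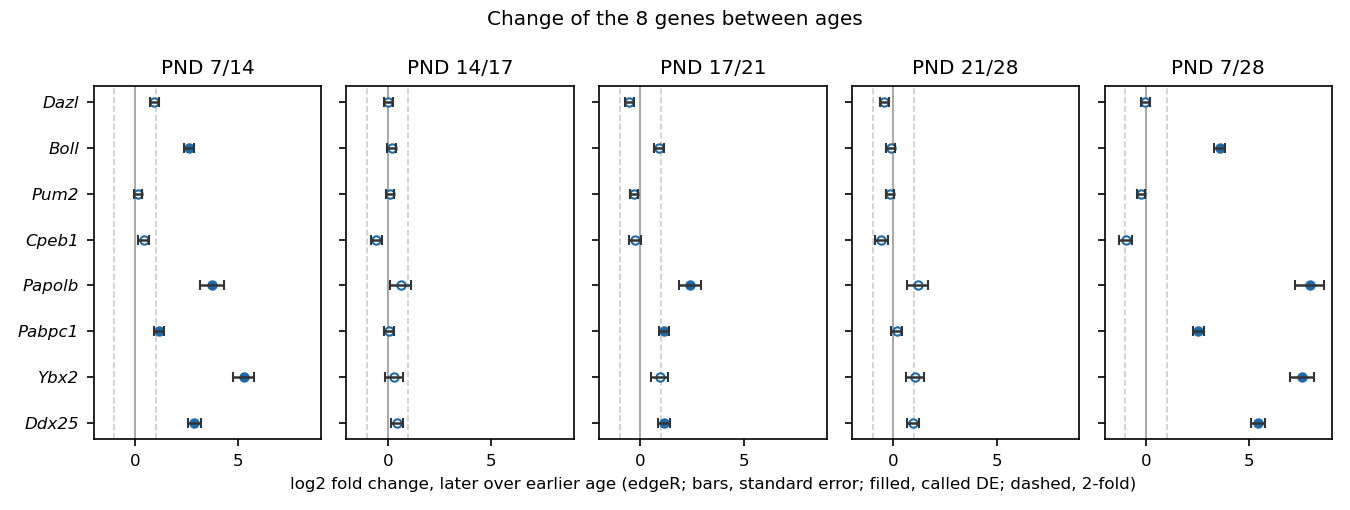
Change of each gene (vertical axis) in 5 comparisons of ages as edgeR log2 fold change, later over earlier (horizontal axis), with bars for the standard error, filled points for DE genes and dashed lines at 2-fold. Filled points appear for 5 genes in PND 7/14, for 3 in PND 17/21 and for 5 in PND 7/28, and for none in PND 14/17 and PND 21/28.

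Dazl encodes the DAZ family protein of germ cells that binds mRNA and acts on its translation. Its RPKM was 131 and 112 in the PND 7 mice, 236 and 257 at PND 14, 232 and 242 at PND 17, 156 and 145 at PND 21 and 94.3 and 95.6 at PND 28. The PND 14 and PND 17 mice were above all others and overlapped each other, and both PND 28 mice were below every other mouse. From PND 7 to PND 14 the log2 fold change was 0.92 ± 0.21 (SE, n = 2 mice against 2; edgeR adjusted p = 0.012), which is a 1.90-fold difference and just under the 2-fold limit. Without PND 14 mouse 1 it was 1.01 (adjusted p = 0.0165) and past both limits, as it also was with library totals, with limma and without PND 7 mouse 1. From PND 14 to PND 28 it was -0.95 ± 0.21 (adjusted p = 0.00464) and from PND 17 to PND 28 it was -0.98 ± 0.21 (adjusted p = 0.00471), again under 2-fold, although the former was -1.05 and DE without PND 14 mouse 1.

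The difference of Dazl between PND 7 and PND 28 depended on the scaling. RPKM was lower in both PND 28 mice than in both PND 7 mice, but the TMM scaled log2 fold change was -0.03 ± 0.21 (adjusted p = 0.916), and with TMM scaled library sizes the mean RPKM was 114 at PND 7 and 112 at PND 28. Scaled by library totals instead, the log2 fold change was -0.35 and the median of all genes in PND 7/28 moved by -0.32. With library totals the median of all genes moved by -0.22 in PND 21/28, and with RLE scaling it moved by 0.17 in PND 7/28 and 0.10 in PND 17/21. On the TMM scale the mice of these ages overlapped. In every library 12 of its 13 exons had over 10 reads.

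Boll encodes Boule, regarded as the ancestral member of the DAZ family, and its course was unlike that of Dazl. Its RPKM was 4.69 and 3.72 in the PND 7 mice, 25.2 and 30.0 at PND 14, 32.1 and 27.4 at PND 17, 60.2 and 42.6 at PND 21 and 37.0 and 43.1 at PND 28. Both PND 7 mice were below all others, and the PND 21 and PND 28 mice overlapped. The rise from PND 7 to PND 14 was 6.09-fold (log2 fold change 2.61 ± 0.25, adjusted p = 4.91e-05), and 2.75 on the log2 scale without PND 14 mouse 1. From PND 17 to PND 21 the log2 fold change of 0.89 ± 0.23 had an adjusted p of 0.0311 but was under 2-fold, and from PND 14 to PND 21 Boll was DE at 1.08 ± 0.23 (adjusted p = 0.0103), beside 14% of all genes tested. The latter call was lost without PND 14 mouse 1 (0.92, adjusted p = 0.0728) and without PND 21 mouse 1 (0.91, adjusted p = 0.0752). Exon coverage followed the level, with 0 to 4 of 22 exons over 10 reads in the PND 7 libraries and 16 to 20 from PND 14 on.

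Dazl was the more abundant of this pair of DAZ family genes in every mouse. The mean RPKM of Dazl was 122 at PND 7 beside 4.20 for Boll, and 94.9 beside 40.1 at PND 28. Across the 10 mice the log2(CPM + 1) values of Dazl and Boll had a Pearson r of 0.273, whereas those of Boll had an r between 0.929 and 0.972 with Pabpc1, Papolb, Ddx25 and Ybx2. These r values describe 10 mice that share the 5 ages, and no p is given for them.

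Pum2 is a Pumilio protein that represses mRNAs carrying its recognition element. Its RPKM was 35.4 and 36.5 in the PND 7 mice, 42.3 and 41.3 at PND 14, 42.6 and 43.0 at PND 17, 33.0 and 30.2 at PND 21 and 23.3 and 25.5 at PND 28. The mice of different ages did not overlap, yet Pum2 was DE between no pair of ages. The standard error of the fit draws on the spread of other genes as well as on that of Pum2. The log2 fold change was 0.12 ± 0.19 in PND 7/14 and -0.23 ± 0.19 in PND 7/28 (adjusted p = 0.675 and 0.317). The former was 0.13 without PND 14 mouse 1. Its largest difference, -0.47 ± 0.19 between PND 17 and PND 28, had an adjusted p of 0.0745.

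Cpeb1 binds the cytoplasmic polyadenylation element and controls the length of the poly(A) tail of its targets, and it was the gene of the set with the lowest level from PND 14 on. Its RPKM was 6.20 and 7.46 in the PND 7 mice, 12.2 and 7.25 at PND 14, 5.78 and 6.74 at PND 17, 4.70 and 4.69 at PND 21 and 2.44 and 3.01 at PND 28. PND 14 mouse 1, the library with the spermatid RNAs and the higher Sertoli sum, stood alone at the top. Cpeb1 fell between PND 14 and PND 28 (log2 fold change -1.40 ± 0.29, adjusted p = 0.00313), a comparison in which 37.7% of all genes were DE, and without PND 14 mouse 1 it also fell, by 1.04 on the log2 scale (adjusted p = 0.0332). Between PND 7 and PND 28 the value was -0.99 ± 0.29 (adjusted p = 0.0128), just under 2-fold, and 10 of the 23 alternatives placed it past that limit. In PND 7/14 the log2 fold change was 0.42 ± 0.28 with and 0.03 without PND 14 mouse 1.

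The other CPEB genes went another way. Cpeb2 rose in PND 7/14 (log2 fold change 1.35 ± 0.40, adjusted p = 0.0336) and in PND 17/21 (1.38 ± 0.39, adjusted p = 0.0455), but the first of these calls was lost without any one of the mice of the comparison, with an adjusted p of 0.0613 without PND 14 mouse 1, and the second fell to 0.61 without PND 21 mouse 1 (adjusted p = 0.432). Its RPKM was 5.45 and 4.97 at PND 7 and 22.3 and 42.0 at PND 28, and the PND 21 mice were far apart at 50.7 and 18.3. In PND 7/28 Cpeb2, Cpeb3 and Cpeb4 all rose, by 2.95 ± 0.42, 1.59 ± 0.51 and 1.02 ± 0.28 on the log2 scale. The calls of the latter pair were lost without PND 28 mouse 2 (1.32 and 1.00), and also without PND 7 mouse 1 for Cpeb3 (1.21) and without PND 7 mouse 2 for Cpeb4 (0.80). At PND 7 Cpeb1 (6.20 and 7.46 RPKM) thus lay near Cpeb2, and at PND 28 every mouse had less Cpeb1 than Cpeb2 or Cpeb4.

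Papolb, the poly(A) polymerase of the testis that acts in the cytoplasm of germ cells, had the largest fitted change of the set over the whole span, close to that of Ybx2. Its RPKM was 1.95 and 0.32 in the PND 7 mice, 14.5 and 18.5 at PND 14, 31.5 and 17.2 at PND 17, 131 and 107 at PND 21 and 230 and 230.2 at PND 28. Counts at PND 7 were 79 and 9, so that the starting level was poorly fixed, but the 2 barcodes of each mouse were alike at 2.04 and 1.86 in mouse 1 and 0.34 and 0.29 in mouse 2. The rise was 13.1-fold from PND 7 to PND 14 (log2 fold change 3.71 ± 0.59, adjusted p = 0.00138), 5.28-fold from PND 17 to PND 21 (2.40 ± 0.53, adjusted p = 0.0163) and 243-fold over the whole span (7.92 ± 0.69, adjusted p = 4.5e-06). The PND 28 mice were above the PND 21 mice, but the log2 fold change of 1.18 ± 0.50 between these ages had an adjusted p of 0.186. PND 14 mouse 1 had the lower Papolb level of its pair, and without it the log2 fold change of PND 7/14 was 3.88 (adjusted p = 0.00154). The PND 7 mice moved the fold more. Without PND 7 mouse 1 Papolb rose 51.5-fold in PND 7/14 and 947-fold in PND 7/28, and without PND 7 mouse 2 it rose 7.85-fold and 145-fold.

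Papola, the general nuclear poly(A) polymerase, was measured beside it. It ranged from 31.6 to 46.0 RPKM over all 10 mice and was DE in none of the 5 comparisons, with a log2 fold change of 0.27 ± 0.21 over the whole span (adjusted p = 0.278). The RPKM ratio of Papolb to Papola was 0.0491 and 0.00997 at PND 7, beside 6.76 and 6.61 at PND 28. At PND 17 every mouse still had more Papola than Papolb, and from PND 21 on every mouse had more Papolb.

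Pabpc1, the general cytoplasmic poly(A)-binding protein, rose in 2 steps. Its RPKM was 11.16 and 12.02 in the PND 7 mice, 29.4 and 25.9 at PND 14, 29.2 and 25.5 at PND 17, 73.4 and 38.8 at PND 21 and 50.5 and 55.2 at PND 28. The PND 7 mice were lowest, the PND 14 and PND 17 mice overlapped and the PND 21 mice were the pair farthest apart. The log2 fold change was 1.17 ± 0.25 in PND 7/14 (adjusted p = 0.00869), 1.13 ± 0.25 in PND 17/21 (adjusted p = 0.0175) and 2.53 ± 0.26 in PND 7/28 (adjusted p = 1.5e-05). PND 21 mouse 1 had the higher level of its pair, and without it the log2 fold change of PND 17/21 was 0.72 and Pabpc1 was not DE there. Without PND 14 mouse 1 the log2 fold change of PND 7/14 was 1.10 (adjusted p = 0.0303).

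Pabpc2 and Pabpc6, relatives of Pabpc1, were at or near 0 before meiosis. Pabpc2 was at 0.10 and 0 RPKM in the PND 7 mice, 21.4 and 30.1 at PND 14 and 342 and 305 at PND 28, and Pabpc6 was at 0.245 and 0, 18.7 and 33.0, and 223 and 205. Both were DE in PND 7/14, PND 17/21 and PND 7/28, with no fold change given from PND 7 because PND 7 mouse 2 had 0 counts of either. The PND 17/21 calls of both were lost without PND 17 mouse 2, with log2 fold changes of 1.83 for Pabpc2 and 1.39 for Pabpc6. That of Pabpc6 was also lost without PND 17 mouse 1, PND 21 mouse 1 or either PND 28 mouse. Pabpc4 was at or under 3.0 RPKM in every mouse and was DE and lower in PND 7/28 (adjusted p = 0.00108), with 0.88 and 2.995 RPKM at PND 7 and 0.03 and 0 at PND 28. At PND 28 the mean of Pabpc1, 52.8 RPKM, was thus below those of Pabpc2 and Pabpc6, whereas at PND 7 Pabpc1 was the highest of these genes.

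Ybx2, the germ cell Y-box protein that packages mRNA into stored particles, had the largest fitted change of the set from PND 7 to PND 14. Its RPKM was 4.89 and 1.82 in the PND 7 mice, 124 and 157 at PND 14, 195 and 136 at PND 17, 217 and 351 at PND 21 and 620 and 404 at PND 28. Both PND 7 mice were far below all others, with counts of 87 and 24, and the mice of an age differed by up to 1.62-fold from PND 14 on. The rise was 38.3-fold in PND 7/14 (log2 fold change 5.26 ± 0.52, adjusted p = 6.02e-05) and 187-fold in PND 7/28 (7.55 ± 0.57, adjusted p = 1.76e-06). The later steps, 0.92 ± 0.42 in PND 17/21 and 1.05 ± 0.42 in PND 21/28, missed the threshold (adjusted p = 0.183 and 0.161), although both mice of the later age were higher. PND 17 and PND 28 differed (1.98 ± 0.43, adjusted p = 0.00479), beside 32.1% of all genes, but the call was lost without PND 17 mouse 2 (1.75, adjusted p = 0.0603). PND 7 mouse 1 had the higher level of its pair, and without it Ybx2 rose 73.5-fold in PND 7/14 and 355-fold in PND 7/28. The log2 fold change of PND 7/14 was 5.43 without PND 14 mouse 1. Exons over 10 reads numbered 0 to 2 of 20 in the PND 7 libraries and 18 or 19 later.

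Other Y-box genes were already expressed before meiosis. Csda, which encodes another Y-box protein, was at 34.1 and 37.4 RPKM in the PND 7 mice and at 766 and 709 at PND 28, and it rose in PND 7/14 (log2 fold change 1.92 ± 0.31, adjusted p = 0.00154), in PND 17/21 (1.31 ± 0.30, adjusted p = 0.0202) and over the whole span (4.70 ± 0.35, adjusted p = 1.55e-06). Ybx1, the widely expressed member, was at 17.6 and 17.7 at PND 7 and at 63.0 and 51.3 at PND 28. It also rose over the whole span (2.03 ± 0.225, adjusted p = 2.32e-05), while of the neighbouring ages none differed past both limits. Without PND 14 mouse 1 the log2 fold change of Csda in PND 7/14 was 2.15, and its call in PND 17/21 was lost without PND 17 mouse 2 (adjusted p = 0.202) or PND 21 mouse 1 (adjusted p = 0.0929). At PND 7, therefore, Ybx2 was the lowest of these Y-box genes, and at PND 14, with 124 and 157 RPKM, it lay beside Csda with 120 and 166.

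Ddx25 encodes a DEAD-box RNA helicase of the testis that takes part in the export and translation of spermatid mRNAs. Its RPKM was 16.2 and 11.5 in the PND 7 mice, 89.2 and 131 at PND 14, 166 and 120 at PND 17, 289.8 and 290.4 at PND 21 and 490 and 465 at PND 28. Every age except PND 14 and PND 17 was set apart from the next, with both mice of the later age higher. The rise was 7.32-fold in PND 7/14 (log2 fold change 2.87 ± 0.31, adjusted p = 0.000101), 2.22-fold in PND 17/21 (1.15 ± 0.29, adjusted p = 0.0274) and 42.3-fold in PND 7/28 (5.40 ± 0.34, adjusted p = 6.41e-07). The log2 fold change of PND 7/14 was 3.14 without PND 14 mouse 1. In PND 17/21 it was 0.95 to 1.38 with a mouse left out, and 15 of the 23 alternatives called Ddx25 DE there. That call was lost without any one mouse of PND 17, PND 21 or PND 28. The step from PND 21 to PND 28 was 1.92-fold with an adjusted p of 0.0692. Ddx4, the germ cell helicase also called Vasa, rose in PND 7/14 (1.93 ± 0.29, adjusted p = 0.00107) from 39.8 and 28.0 RPKM at PND 7 to 118 and 156 at PND 14 (2.13 without PND 14 mouse 1), and was at 209 and 223 at PND 28. The RPKM of Ddx25 was below that of Ddx4 in both PND 7 mice and above it in both PND 28 mice.

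**Figure D4:**
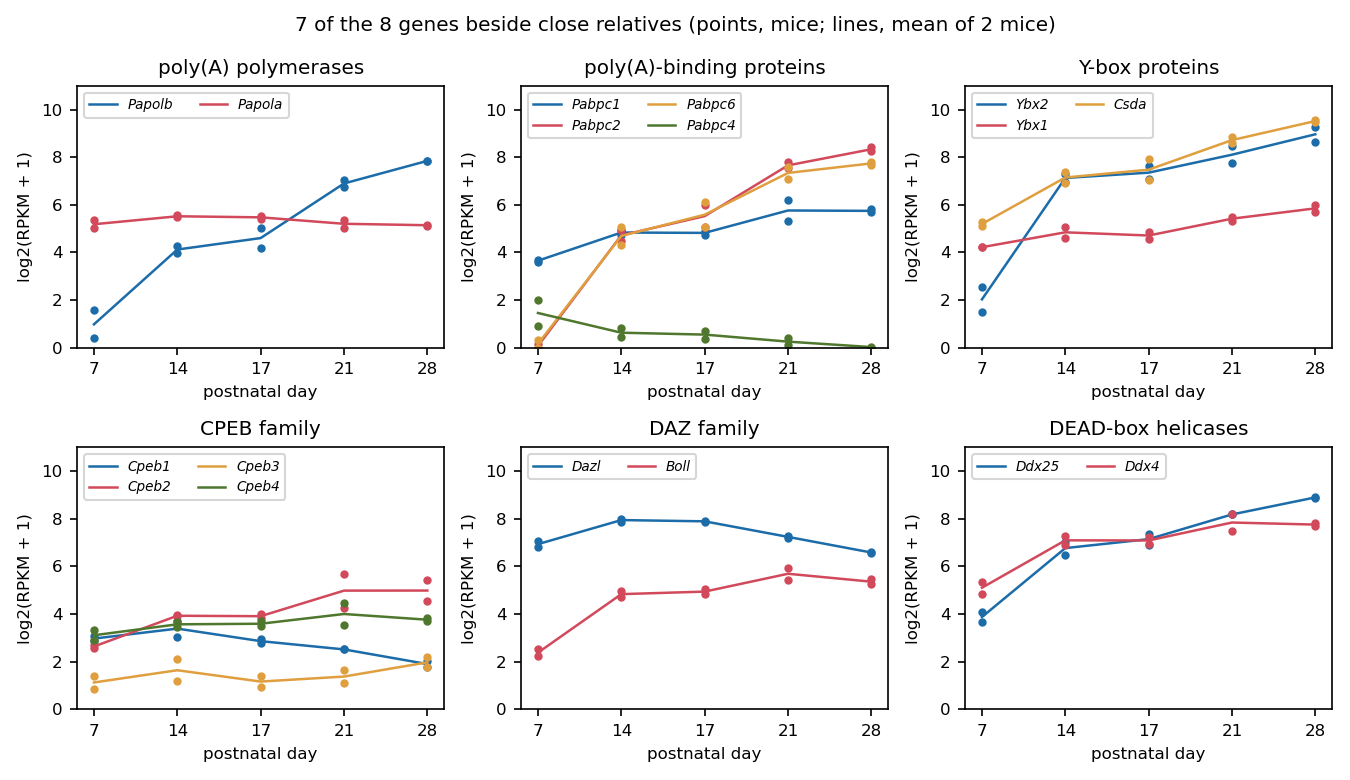
Levels of 7 of the genes and their close relatives as log2(RPKM + 1) (vertical axes, 1 scale) against postnatal day, with points for mice and lines for the mean of 2 mice. Papolb crosses Papola between PND 17 and PND 21, Pabpc2 and Pabpc6 climb past Pabpc1, and Boll climbs while staying below Dazl.

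The calls in PND 17/21 changed when some of the mice were left out. Papolb, Pabpc1 and Ddx25 were DE in it with all mice, but none of the 8 was DE without PND 17 mouse 1, without PND 17 mouse 2 or without PND 21 mouse 1, where 1 age is left with a single mouse that is assumed to vary like the others. In these fits the log2 fold change was 2.05 to 2.89 for Papolb, 0.95 to 1.38 for Ddx25 and 0.72 to 1.21 for Pabpc1. The calls over all genes also dropped, from 1743 to 576, 266 and 492. In PND 7/14 and PND 7/28, by contrast, Boll, Papolb, Ybx2 and Ddx25 were DE under every alternative in which they were tested.

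Ordered by mean RPKM, the ages of each gene gave 32 neighbouring pairs, of which 8 were DE. The pairs were ordered by the levels that were then tested. They mix comparisons in which 0% (PND 14/17) to 55.6% (PND 7/28) of all genes were DE, so the count has no single share beside it. Boll was higher at PND 14 than at PND 7, Ybx2 likewise, and Ddx25 and Papolb were higher at PND 14 than at PND 7 and at PND 21 than at PND 17. For Pabpc1 the DE neighbours were PND 28 over PND 14 and PND 17 over PND 7, where its means at PND 14 and PND 17 were 27.7 and 27.4. No neighbouring pair of Dazl, Pum2 or Cpeb1 was DE, so that the order of their ages is not resolved step by step.

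The genes with the most similar course were sought among 9890 genes by the Pearson r of log2(CPM + 1) over the 10 mice, as a description. Among those with the highest r for Ddx25 were Cage1, Tsga10 and Epyc (r = 0.999 each), for Boll Spag17 (0.997), Tmem30c and Dnahc8 (both 0.996), and for Ybx2 Dpep3 (0.997), Meig1 and Brdt (both 0.995). Papolb was most like 4930529M08Rik and Als2cr11 (both 0.997) and 4933427E11Rik (0.996), and Pabpc1 was most like Ankmy1 (0.995), 2700049A03Rik (0.994) and Xrra1 (0.992). Dazl, Pum2 and Cpeb1, without a DE call between neighbouring ages, had lower values. Among those for Dazl were Slc25a1 (0.975) and Adk (0.973), and for Pum2 Gart (0.980), Sh3bgrl2 (0.978) and Top2b (0.973). For Cpeb1 they were Scara5 (0.959), 9030624J02Rik (0.956) and Gatm (0.954).

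The other genes of these processes were taken from 6 lists, of which 107 of 112 genes were tested. Of these, 26 were higher and 2 lower in PND 7/14, 0 were DE in PND 14/17, 13 were higher and 2 lower in PND 17/21, 16 were higher and 0 lower in PND 21/28, and 41 were higher and 14 lower in PND 7/28. As shares these were 26.2% for PND 7/14 (18.9% of all genes tested), 14% for PND 17/21 (10.3%), 15% for PND 21/28 (7.66%) and 51.4% for PND 7/28 (55.6%). The last list, 17 mRNAs known to be bound or stored, held 14 of the 26 genes higher in PND 7/14. It held 7 of the 13 higher in PND 17/21 and 11 of the 16 in PND 21/28. Within the lists, which leave out the 8 genes, and with all mice, most of the higher calls thus came from this list. The majority was narrow in PND 7/14 and PND 17/21, and in PND 7/14 it was not kept without PND 14 mouse 1. The median log2 fold change of the 107 genes was 0.28 in PND 7/14 and 0.22 in PND 7/28, beside 0.11 and 0.10 over all genes tested. Without PND 14 mouse 1, 25 were higher and 2 lower in PND 7/14, 24 of them DE in both fits.

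Among 25 genes that add or remove poly(A), 2 were higher in PND 7/14 (8%, beside 13.5% of all genes) and 9 higher and 1 lower in PND 7/28 (40%, beside 55.6%), with a median of 0.21 beside 0.10. Cstf1, a subunit of the cleavage stimulation factor, rose from 10.7 and 6.63 RPKM at PND 7 to 37.6 and 28.1 at PND 28 (log2 fold change 2.25 ± 0.28, adjusted p = 5.26e-05). Papd5 and Papd7, a pair of noncanonical poly(A) polymerases, parted. Papd5 rose in PND 21/28 (1.21 ± 0.20, adjusted p = 0.00414) to 41.3 and 41.1 RPKM, a call lost without PND 21 mouse 2 (adjusted p = 0.0565), and Papd7 fell in PND 7/28 (-1.86 ± 0.30, adjusted p = 0.000315), from 7.96 and 7.84 to 1.85 and 1.59. Of 7 tested poly(A)-binding proteins and partners, Pabpc2 and Pabpc6 were the 2 that were higher in PND 7/14 and in PND 7/28, and Pabpc4 was lower in PND 7/28.

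Of 19 mRNP storage proteins and helicases, 5 were higher in PND 7/14 (26.3%, beside 13.5% of all genes), and 6 were higher and 2 lower in PND 7/28 (42.1%, beside 55.6%), with a median of 0.03 beside 0.10 over all genes. The helicases D1Pas1 and Ddx3x, which are an autosomal and an X-linked gene of the same DDX3 family, moved in opposite directions. D1Pas1 was at 3.48 and 2.48 RPKM at PND 7 and at 59.4 and 73.7 at PND 28 (log2 fold change 4.78 ± 0.35, adjusted p = 1.5e-06), and Ddx3x was at 22.0 and 29.5 and at 6.53 and 7.75 (-1.52 ± 0.23, adjusted p = 0.000194). Mael, a germ cell granule protein, rose in PND 7/14 (2.35 ± 0.37, adjusted p = 0.0014, and 2.59 without PND 14 mouse 1), and Ddx20 rose both in PND 17/21 (1.14 ± 0.23, adjusted p = 0.0112) and in PND 21/28 (1.08 ± 0.23, adjusted p = 0.0141). The first of these Ddx20 calls was lost without either PND 17 mouse or PND 21 mouse 1, and the second without PND 21 mouse 2 or either PND 28 mouse (adjusted p = 0.0654 to 0.122). Patl1 fell in PND 7/28 (-3.11 ± 0.71, adjusted p = 0.00288), from 11.3 and 9.59 RPKM to 0.54 and 1.5, with -2.49 without PND 28 mouse 1 and -3.91 without PND 28 mouse 2, but PND 14 mouse 1 had 10.5 and PND 14 mouse 2 had 2.56.

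Of 26 tested sequence-specific regulators, 3 were higher and 2 lower in PND 7/14 (19.2%, beside 18.9% of all genes), and 7 were higher and 6 lower in PND 7/28 (50%, beside 55.6%), with a median of -0.06. Lin28a, a regulator of undifferentiated germ cells, fell in PND 17/21 (log2 fold change -1.17 ± 0.31, adjusted p = 0.0348) and over the whole span (-2.67 ± 0.33, adjusted p = 4.73e-05), the former call being lost without any one mouse of PND 17, PND 21 or PND 28. Samd4, a Smaug family repressor, fell in PND 7/14 (-1.20 ± 0.31, adjusted p = 0.0207) and rose in PND 21/28 (3.87 ± 0.33, adjusted p = 0.000196), with 1.92 and 1.60 RPKM at PND 21 and 22.6 and 21.3 at PND 28. Its log2 fold change in PND 7/14 was -1.78 without PND 14 mouse 1, and that call was lost without PND 14 mouse 2 (-0.83) or PND 7 mouse 1 (-0.85). Of 13 tested cap-binding and initiation factors, 0 were DE in PND 7/14, beside 18.9% of all genes, and 2 were higher and 3 lower in PND 7/28 (38.5%, beside 55.6%). Eif4e2, a cap-binding protein, rose over the whole span (1.86 ± 0.25, adjusted p = 8.33e-05) and Eif4a2, an initiation helicase, fell (-1.04 ± 0.26, adjusted p = 0.00503), but by less than 2-fold without PND 7 mouse 2 (-0.87) or PND 28 mouse 1 (-0.99).

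The last list held 17 mRNAs known to be bound or stored by such proteins, and it shares transcripts with the spermatid markers. In PND 7/14, 14 were higher (82.4%), in PND 17/21 7 (41.2%) and in PND 21/28 11 (64.7%), beside 13.5%, 9.29% and 7.37% of all genes, with medians of 2.28 and 3.53 on the log2 scale in the latter comparisons beside 0.00 and 0.03 over all genes. At PND 7, 7 of the 17 were at 0 in both mice, and with these at a floor of 3 counts over both mice the median in PND 7/14 was 6.17. That median includes PND 14 mouse 1, and in PND 14/17 the median of the 17 was -2.49, beside -0.003 over all genes. PND 14 mouse 1 stood apart in this list, as its Prm1, Tnp1, Tnp2 and Akap4 levels were 133, 158, 76.8 and 23.9 RPKM beside 2.46, 5.17, 6.03 and 1.09 in mouse 2. Without that mouse fewer of the 17 were higher in PND 7/14, with Smcp and Spata18 lost, and fewer of all genes. With all mice 3 of the 17 were higher in PND 14/21 (17.6%, beside 11.8% of all genes). Without PND 14 mouse 1 more of the 17 but fewer of all genes were higher there. The mRNA of lactate dehydrogenase C, Ldhc, is made in spermatocytes. It did not follow the spermatid pattern in the PND 14 pair, with 357 RPKM in mouse 1 and 654 in mouse 2. Between PND 21 and PND 28 Prm1 went from 12.9 and 13.2 RPKM to 2088 and 2532. Papolb, Ybx2 and Ddx25 were already at 107 or more RPKM in every PND 21 mouse. Their log2 fold changes were 1.18, 1.05 and 0.94, with both PND 28 mice higher, but they were not DE.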

How the data were processed

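Testis RNA of 10 mice was analysed as 12 libraries, since each PND 7 mouse was sequenced under 2 barcodes. The authors aligned reads of 50 bases from the SOLiD 4 to mm9 with LifeScope 2.1, dropped those that aligned at more than 10 places, and deposited, per Ensembl gene, the raw count of uniquely placed exon reads. The deposited RPKM values divide this count by the exon length and by the counted reads of the library, and the authors also deposited the number of exons with over 10 reads. Whether strand was used in counting is not given in the sources used here. Groups were taken from the age in the labels.

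Counts of the barcodes of a PND 7 mouse were summed and their RPKM values averaged. The count test was that of edgeR 4.0.16, run in R 4.3.3 (TMM, filterByExpr, quasi-likelihood test, a fit of all 10 mice, common dispersion 0.0726), with Benjamini-Hochberg adjustment over all genes tested. limma 3.58.1 on log2(RPKM + 1) followed the criteria of the study (unadjusted p of at most 0.01, 2-fold, 10 RPKM between the means), and DESeq2 1.42.0 was an alternative. The labels do not say how the mice were related, so p-values refer to the spread between these mice. That spread is pooled over the 5 ages and moderated towards that of other genes. For a single gene, 2 mice an age are too few for an exact permutation test to reach 0.05. Other alternatives were the scaling, the filter on low counts, the samples in the fit, the mouse number as a block, the pseudocount and leaving out each mouse. The genes, the lists and the tests were chosen with earlier results of these data known. Genes named from a list are, for each comparison, at most the top 2 in each direction by fold change among those called DE whose mean was 10 CPM or more, and close relatives of the 8 genes, Papola, Ybx1, Csda, Ddx4 and the Cpeb and Pabpc genes, are named beside them. Ldhc, Smcp, Spata18, Prm1, Tnp1, Tnp2 and Akap4 were added at PND 14 after their values were seen. The count test was first tested on simulated data. Protein sequences were not used here, and some genes that this rule would name are not reported here.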

Additional observations from a re-analysis of the deposited data

How the results depend on the processing

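Boll, Papolb, Ybx2 and Ddx25 in PND 7/14 and, with Pabpc1, in PND 7/28 were DE under every alternative in which they were tested. The number of the 8 genes DE in PND 17/21 (3) was 1 with limma and an adjusted p and 0 with limma and a pseudocount of 0.1. Of all genes 1743 were DE there by edgeR, and 1222 and 601 in these limma settings. With a mouse left out the number of the 8 genes fell in some fits. In PND 21/28 (0) it was 1 with DESeq2, 2 with no filter on low counts, 1 with at least 10 counts in every mouse, 1 with only the 4 mice of the comparison and 0 to 1 with a mouse left out.

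Of the 107 genes of the lists, the number DE from the earliest to the latest neighbouring ages was 28, 0, 15 and 16, and 55 over the whole span. Of all genes 3191, 0, 1743, 1292 and 9378 were DE in the same comparisons. Counts over all genes follow in parentheses for the settings that keep all mice. With no filter on low counts, where 112 are tested, 10 were DE in PND 14/17 (357) and 23 in PND 17/21 (2477). With at least 10 counts in every mouse 86 are tested, and Papolb is not. The numbers were then 12 for PND 7/14 (1841), 8 for PND 17/21 (771), 7 for PND 21/28 (557) and 35 for PND 7/28 (5450). With limma, where 112 are tested, 17 by the criteria of the study were DE in PND 7/14 and 9 in PND 17/21. With limma and an adjusted p 18 were DE in PND 7/14 (2165), 6 in PND 17/21 (1222) and 10 in PND 21/28 (1337). With a pseudocount of 0.1 there were 1 in PND 17/21 (601) and 5 in PND 21/28 (713). With a mouse left out, where 107 or 108 are tested, the range was 0 to 9 in PND 14/17 (9 without PND 14 mouse 2), 1 to 21 in PND 17/21 and 4 to 19 in PND 21/28. Over all genes the calls in these comparisons also moved when a mouse was left out. The cause of these differences was not tested.

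Differences near 0 turned their sign. Dazl in PND 14/17 was 0.03 and became -0.0599 with library totals, -0.0529 with limma, -0.0531 with a pseudocount of 0.1 and -0.0898 to 0.132 with a mouse left out. In PND 7/28 Dazl was -0.03 and became 0.14 with RLE scaling, 0.14 with DESeq2, 0.0437 with at least 10 counts in every mouse, 0.0506 with only the 4 mice and -0.15 to 0.12 with a mouse left out. Boll in PND 21/28 was -0.12 and lay between -0.275 and 0.053 with a mouse left out. Pabpc1 in PND 14/17 was 0.07 and became -0.0215 with library totals, -0.0153 with limma, -0.0158 with a pseudocount of 0.1 and -0.0158 to 0.143 with a mouse left out. In PND 21/28 Pabpc1 was 0.16 and became -0.0827 with library totals, -0.0162 with limma, -0.0153 with a pseudocount of 0.1 and -0.162 to 0.587 with a mouse left out. None of these values was DE.

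With the mouse number as a replicate block, 5, 0, 3, 0 and 5 of the 8 genes were DE in PND 7/14, 14/17, 17/21, 21/28 and 7/28, and 27, 0, 12, 16 and 55 of the list genes. Of all genes 2947, 0, 1571, 1123 and 9228 were DE in that fit. The mouse number is shared by separate mice only, and the deviations of mice with the same number correlated with r between -0.17 and 0.05.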

Other observations

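PND 14 mouse 1 differed from PND 14 mouse 2 in genes other than spermatid and Sertoli cell markers. Cpeb1 was at 12.2 RPKM in mouse 1 and 7.25 in mouse 2, Patl1 at 10.5 and 2.56, Eif4g3 at 16.0 and 7.65, Msi1 at 13.1 and 6.75 and Cpeb3 at 3.26 and 1.26. Papolb (14.5 and 18.5), Ybx2 (124 and 157), Ddx25 (89.2 and 131), Boll (25.2 and 30.0) and Ldhc (357 and 654) were lower in mouse 1, as was the summed RPKM of the spermatocyte markers (951 and 1258). These genes were picked after their values were seen, and no cause was tested.

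The PND 21 mice also differed within the set. PND 21 mouse 1 was the higher of the pair for Pabpc1 (73.4 and 38.8 RPKM), Boll (60.2 and 42.6), Cpeb2 (50.7 and 18.3), Eif4g3 (33.0 and 13.2) and Ddx4 (293 and 179), and the lower for Ybx2 (217 and 351), while Ddx25 was at 289.8 and 290.4. The mice of that age were separate animals, and no test was made within a pair.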
